A study of Mus musculus with 12 samples.

Results

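The fibrous and basement membrane matrix of the liver, and the stellate cells that make much of it, were followed through 40 genes in livers lacking hepatocyte *Marchf6*. The genes were chosen by symbol from the 54232 in the count table, and each symbol matched 1 Ensembl identifier. They comprise 12 collagens and 3 genes taken here as markers of quiescent stellate cells (*Reln*, *Lrat* and *Des*). *Hand2*, *Vim* and the contractile genes *Acta2* and *Tagln* were also included. The others encode ligands, receptors, proteases, protease inhibitors, cross-linking enzymes, proteoglycans and matrix glycoproteins. A gene was tested where 6 or more livers each held over 2 of its reads, which left out *Timp1* and kept 39 members.

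The livers came from male C57Bl/6J mice, 6 WT and 6 LKO, that were 10 weeks old, fed a standard chow diet and fasted for 4 h. WT mice were *Marchf6* fl/fl AlbuminCre- littermates of the *Marchf6* fl/fl AlbuminCre+ LKO mice, so all mice carried the floxed allele and only LKO mice carried Cre. *Marchf6* encodes an E3 ubiquitin ligase of the endoplasmic reticulum membrane, and the albumin promoter directs Cre to hepatocytes. Stellate cells are not a target of this Cre, and the model deletes nothing in them by design. Each library came from 1 mouse, held 14860414 to 22111926 reads, and was made from total liver RNA, in which fewer cells of a type and less RNA per cell cannot be told apart. All WT libraries were numbered ahead of the LKO ones, and genotype therefore cannot be told apart from library order. Counts over the whole *Marchf6* gene (listed as *March6*) do not resolve the 1 deleted exon: they ran from 226 to 247 CPM (read counts scaled to library size, median 244) in WT and from 204 to 248.9 CPM (median 227) in LKO livers, with an adjusted p-value of 0.585.

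Hepatic stellate cells lie between hepatocytes and the sinusoidal endothelium and store vitamin A as retinyl esters. When activated by injury they lose these stores, turn into contractile myofibroblasts with smooth muscle actin, and secrete fibrillar collagens, cross-linking enzymes and protease inhibitors. TGF-beta and PDGF are the best known signals of this switch.

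None of the members differed between genotypes past the threshold. By edgeR's quasi-likelihood test, 0 of 39 members had a Benjamini-Hochberg adjusted p-value under 0.05, where 75 of 17509 genes did (0.428%). limma voom and DESeq2 also called 0 members, where they called 85 and 351 of all genes. The lowest adjusted p-value by edgeR was 0.223, for *Ecm1*. At an unadjusted p-value under 0.05, 7 members were on the higher side in LKO livers (*Lrat*, *Vim*, *Tgfb2*, *Pdgfra*, *Sparc*, *Postn* and *Ecm1*), where 6.33% of all genes were. Only *Col18a1* was on the lower side at that level, where 5.36% of all genes were. In 0 members did the 2 groups of livers not overlap, against 1.30% of all genes.

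The estimates nevertheless leaned to 1 side. Of the 39 members, 35 had a log2 fold change above 0 in LKO over WT livers, where 50.0% of all genes did. Over the members the median was 0.21 on the log2 scale (1.16-fold), and over all genes it was 0.00016. The log2 fold changes of members ran from -0.29 (*Acta2*) to 0.57 (*Tgfb2*), and 34 of 39 estimates put the higher group less than 30% above the lower one, as did 82.9% of all genes.

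**Figure D1:**
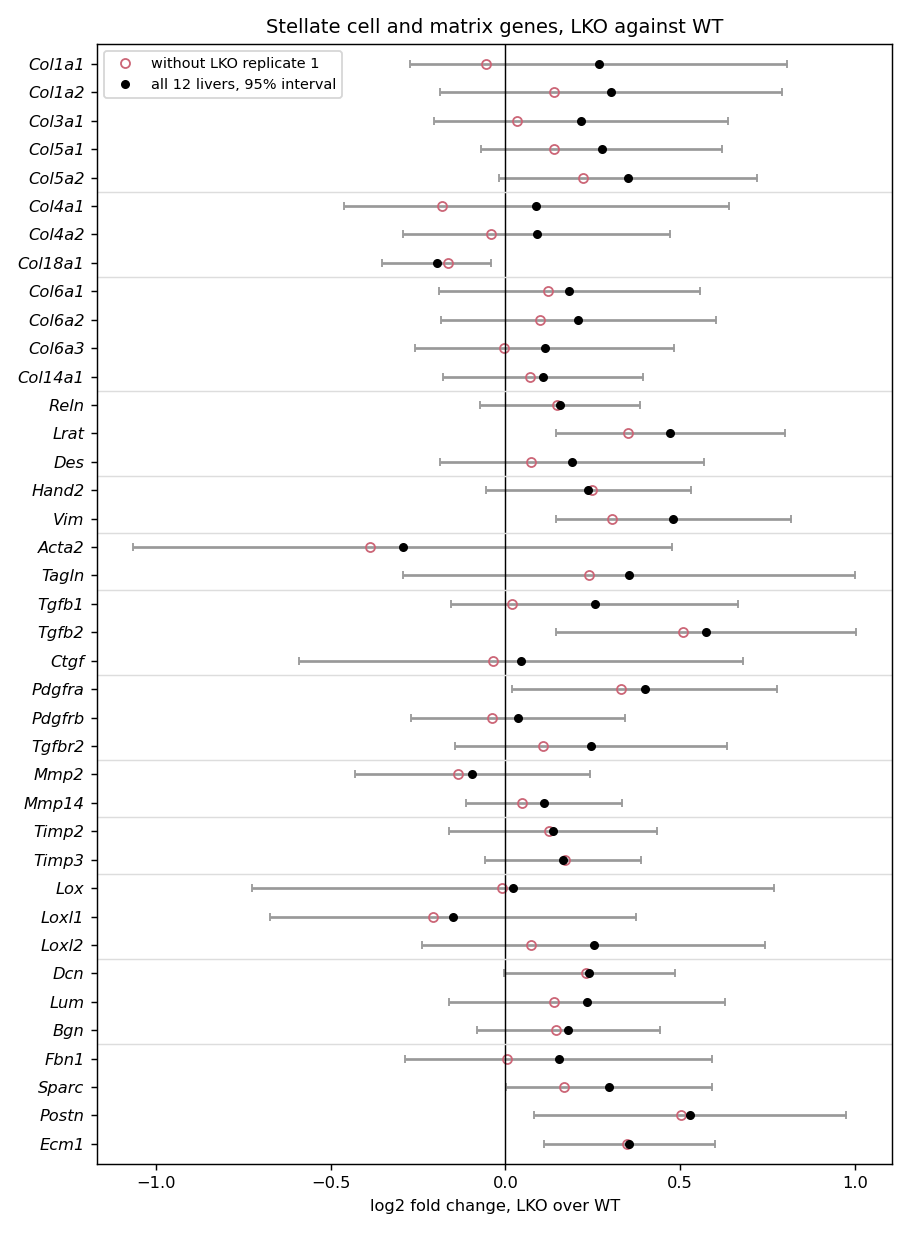
Log2 fold change of each tested member, LKO over WT (x axis), with genes by role on the y axis: filled points with 95% intervals use all 12 livers, and open circles leave out LKO replicate 1. The intervals of 31 of 39 members include 0. Without LKO replicate 1 the median of the members is 0.11, against 0.21 with it.

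LKO replicate 1 stood apart from the other livers. It was the highest of the 12 livers for 23 of 39 members and lay above the WT mean for 38 of them, *Col18a1* being the exception. The mean log2 CPM over the members was 3.88 in this liver and 3.03 to 3.50 in the others. WT replicate 5 lay at the other end and was the lowest of the 12 livers for 14 members. Without LKO replicate 1, 28 of 39 members had a log2 fold change above 0 (49.7% of all genes), and their median was 0.11. An unadjusted p-value under 0.05 on the higher side was then left for *Lrat*, *Vim*, *Tgfb2*, *Postn* and *Ecm1* (5 members, against 6.16% of all genes).

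**Figure D2:**
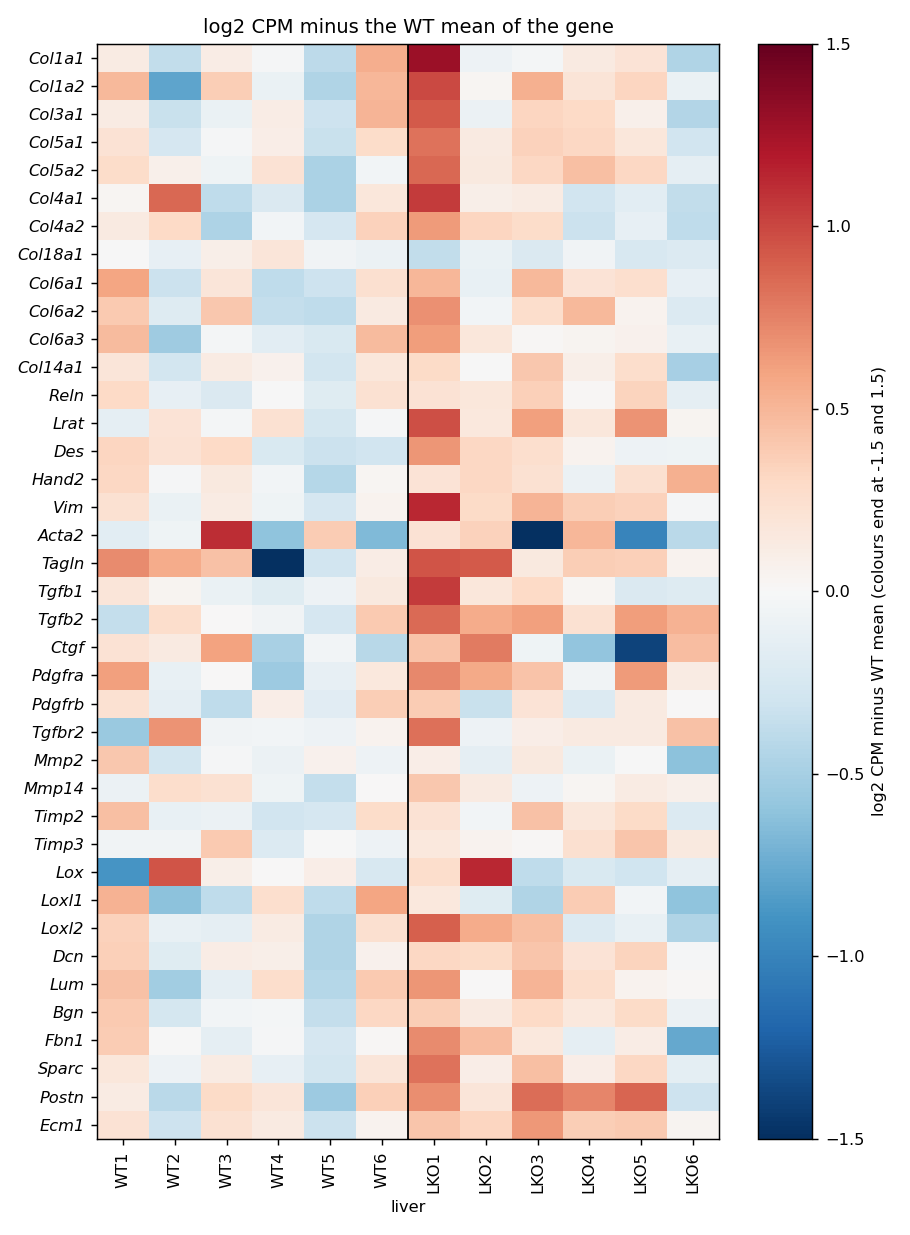
Log2 CPM of the 39 tested members (rows) in each liver (columns), minus the mean of the 6 WT livers, with red above and blue below that mean and colours ending at -1.5 and 1.5. The column of LKO replicate 1 is red in 38 of 39 rows and that of WT replicate 5 is blue in 36.

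Markers of other liver cell types were measured beside the members, as summed CPM per liver. Kupffer cell markers were higher on average in LKO livers for 10 of 10 genes (50.0% of all genes). Of these, 9 were at an unadjusted p-value under 0.05 on the higher side (6.33% of all genes) and 0 at an adjusted one. Their sum ran from 140 to 190 CPM in WT and from 170 to 294 CPM in LKO livers. Hepatocyte markers, led by *Alb*, were lower on average for 9 of 10 genes with 0 called, with sums of 98274 to 117456 CPM in WT and 88018 to 102903 CPM in LKO livers. Endothelial markers were higher on average for 9 of 10 genes (206 to 275 CPM against 224 to 276 CPM), and lymphocyte markers for 6 of 6 tested (0.967 to 2.41 CPM against 2.14 to 3.18 CPM), with 0 called in either list. LKO replicate 1 had the highest sum of cholangiocyte markers, 150 CPM against 52.2 to 89.9 CPM in the other 11 livers. It also had the highest sum of endothelial markers, 276 CPM. The part of these cell types in the members' values was not tested.

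Markers of other matrix-producing cells were summed in the same way. Portal fibroblast markers summed to 8.38 to 14.0 CPM in WT and 9.40 to 12.1 CPM in LKO livers, and smooth muscle markers to 8.37 to 15.2 CPM and 8.90 to 12.8 CPM. Mesothelial markers, which mark the liver capsule, varied most between mice, from 2.22 to 19.1 CPM in WT and from 3.24 to 11.1 CPM in LKO livers. Among these lists 0 of 6, 0 of 5 and 0 of 6 tested genes were called. Of the 5 smooth muscle markers tested, 3 were higher and 2 lower on average in LKO livers. The smooth muscle gene *Myh11* averaged 3.09 CPM in WT and 2.52 CPM in LKO livers, above *Acta2* at 2.38 and 1.96 CPM. WT replicate 3 had the highest smooth muscle sum, 15.2 CPM, and was also the highest liver for *Acta2*. The part of vessel walls in the *Acta2* values was not tested. Of the adipocyte markers, *Lep* had 0 reads in every liver, *Adipoq*, *Plin1* and *Retn* were too low to be tested, and *Car3* and *Cidec*, which hepatocytes also express, made up nearly the whole sum (1731 to 2782 CPM in WT, 1090 to 2132 CPM in LKO livers).

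**Figure D3:**
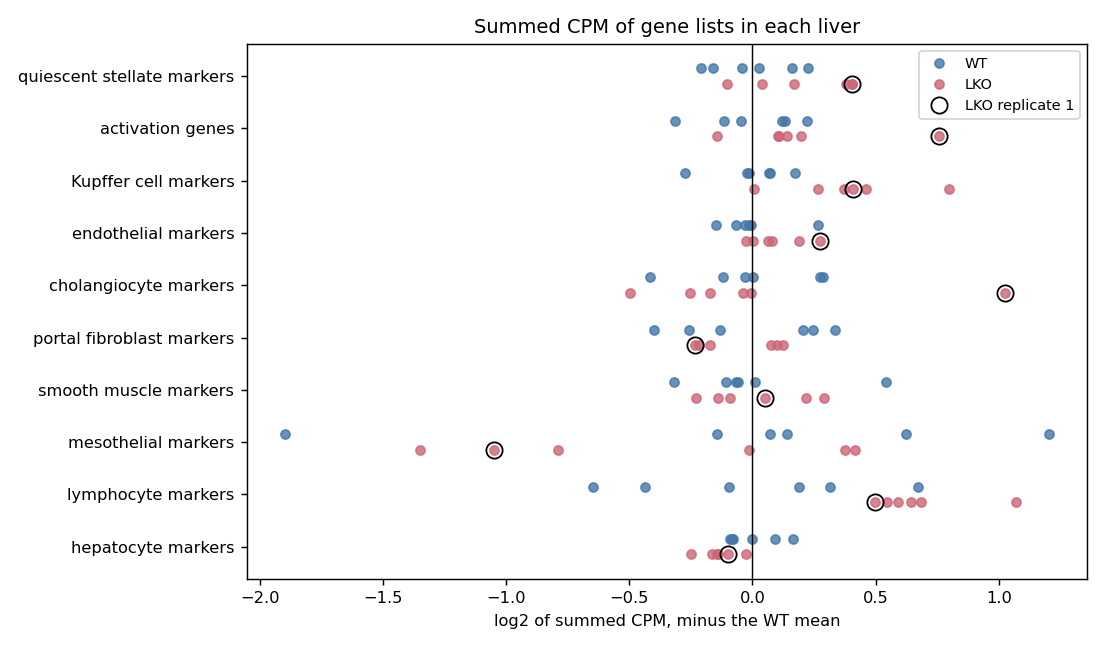
Log2 of the summed CPM of each list in each liver (x axis), minus the mean of the 6 WT livers, for stellate and activation genes and for markers of other cell types (y axis), with WT in blue, LKO in red and LKO replicate 1 ringed. That liver lies furthest right for quiescent stellate markers, activation genes, endothelial markers and cholangiocyte markers, and mesothelial sums spread most. Its lead is narrow for quiescent markers (69.58 CPM against 69.40 CPM in LKO replicate 3) and for endothelial markers (276.2 CPM against 274.6 CPM in WT replicate 3).

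The livers did hold stellate cell RNA in both genotypes. All 10 of 10 stellate cell markers (*Reln*, *Lrat*, *Des*, *Hand2*, *Rgs5*, *Colec11*, *Pth1r*, *Vipr1*, *Nes* and *Cygb*) passed the filter, and together they summed to 115 to 155 CPM in WT and 124 to 177 CPM in LKO livers. Their log2 fold changes were above 0 for 10 of 10 genes (50.0% of all genes), with a median of 0.21, and 0 were called.

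*Reln* encodes reelin, a large secreted glycoprotein that in liver marks stellate cells. It lay at 34.6 CPM in the lowest, 38.6 in the median and 49.6 in the highest WT liver, and at 36.6, 46.1 and 51.7 CPM in LKO livers. The groups overlapped over most of their range, and the log2 fold change was 0.16 ± 0.11 (SE), adjusted p 0.612. *Lrat* encodes lecithin retinol acyltransferase, which makes the retinyl esters that stellate cells store. Its lowest, median and highest values were 8.06, 9.53 and 11.4 CPM in WT and 10.0, 12.9 and 18.9 CPM in LKO livers. All 6 LKO livers lay above the WT mean, yet 3 of them, replicates 2, 4 and 6, fell within the WT range. Its log2 fold change was 0.47 ± 0.15 (SE; 95% interval 0.14 to 0.80), unadjusted p 0.00779 and adjusted p 0.226, and 0.35 without LKO replicate 1.

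*Des* encodes desmin, a muscle-type intermediate filament of stellate cells. Values of 1.88, 2.39 and 2.97 CPM in WT livers stood beside 2.24, 2.64 and 3.77 CPM in LKO livers. These rest on 30 to 81 reads per liver, and the groups overlapped (log2 fold change 0.19 ± 0.18 SE, adjusted p 0.729). *Hand2*, a transcription factor of the stellate lineage, was at 2.51, 3.41 and 4.21 CPM in WT and 3.19, 3.99 and 4.92 CPM in LKO livers (log2 fold change 0.24, adjusted p 0.533).

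*Vim* encodes vimentin, the intermediate filament of mesenchymal cells, which leukocytes and endothelium also express. It lay at 10.6, 12.5 and 14.8 CPM in WT and at 12.4, 16.2 and 27.6 CPM in LKO livers. The highest value was that of LKO replicate 1, the next highest was 17.96 CPM in replicate 3, and replicate 6 lay inside the WT range. The log2 fold change was 0.48 ± 0.16 (SE; 95% interval 0.14 to 0.82), unadjusted p 0.00833 and adjusted p 0.232, and without LKO replicate 1 it was 0.31.

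A list of 28 genes known from stellate cells, none of them a member, was tested in full. It shares *Rgs5*, *Colec11*, *Pth1r*, *Vipr1*, *Nes* and *Cygb* with the 10 markers above. Of the 28, 23 had a log2 fold change above 0 (50.0% of all genes), with a median of 0.10. At an unadjusted p-value under 0.05, 4 were on the higher side (6.33% of all genes), and 0 were called. Of the 22 that are not among those markers, 17 were above 0, 2 had an unadjusted p-value under 0.05 on the higher side, and the median was 0.09. The lowest p-value belonged to *Cygb*, which encodes cytoglobin, a globin of quiescent stellate cells, at 3.35, 5.16 and 6.42 CPM in WT and 5.47, 6.35 and 8.93 CPM in LKO livers (log2 fold change 0.44, adjusted p 0.273). *Tmem56* had the highest mean level and a log2 fold change of 0.09 (adjusted p 0.764).

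The contractile genes had estimates on opposite sides of 0, with wide intervals. *Acta2*, the smooth muscle actin that defines myofibroblasts and that vessel walls also express, lay at 1.35, 2.00 and 4.70 CPM in WT and at 0.751, 2.07 and 3.08 CPM in LKO livers, from 13 to 74 reads per liver. The highest liver was WT replicate 3, the lowest was LKO replicate 3, and 4 of 6 LKO livers lay within the WT range. Its log2 fold change was -0.29 ± 0.36 (SE), with a 95% interval from -1.06 to 0.48, adjusted p 0.811, and it was 0.0097 without WT replicate 3. *Tagln*, transgelin, an actin-binding protein of smooth muscle and myofibroblasts, lay at 0.269, 1.02 and 1.38 CPM in WT and 0.865, 1.08 and 1.63 CPM in LKO livers. The low WT value rested on 4 reads in replicate 4, and the log2 fold change was 0.35 ± 0.30 (SE; adjusted p 0.700). Exons of *Tagln* overlap exons of *Pcsk7* on the other strand over 1349 nt together with a second antisense gene, and the strand setting of the counting is not given in the sources used here.

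The fibrillar collagens, which form the scar in fibrosis, overlapped between the genotypes. All 5 listed here had positive estimates, with a median log2 fold change of 0.28, and 0 were called. Other fibril-forming collagens, which are not members, had estimates below 0 (*Col5a3*, *Col27a1* and *Col11a2*) or above it (*Col24a1*). *Col1a1*, the main chain of type I collagen, lay at 8.85, 12.0 and 16.9 CPM in WT and at 8.49, 12.1 and 28.3 CPM in LKO livers. Apart from LKO replicate 1, every LKO liver lay within the WT range or below it. The log2 fold change was 0.27 ± 0.25 (SE; 95% interval -0.27 to 0.81), adjusted p 0.732, and turned to -0.05 without that liver.

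*Col1a2*, the second chain of type I collagen, lay at 7.18, 13.8 and 17.6 CPM in WT and at 11.6, 14.9 and 24.8 CPM in LKO livers (log2 fold change 0.30 ± 0.23 SE, adjusted p 0.653). *Col3a1*, the chain of type III collagen, lay at 19.8, 25.1 and 35.7 CPM and at 18.4, 28.5 and 47.2 CPM (log2 fold change 0.22 ± 0.20 SE, adjusted p 0.720). In both, LKO replicate 1 was the highest of all livers, and without it the log2 fold changes were 0.14 and 0.03. *Col5a1* and *Col5a2*, chains of the type V collagen that starts fibrils, had log2 fold changes of 0.28 and 0.35, with adjusted p-values of 0.540 and 0.456, and 0.14 and 0.22 without LKO replicate 1.

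The 5 fibrillar collagens among the members were all highest in LKO replicate 1. Their proximal promoters are shown to compare genes that moved together in that liver. RefSeq's promoter table holds 3 of these 5 (GRCm38.p6). Each run is the 150 bases before the annotated start, 5′ to 3′ on the plus strand, with capitals for a match on either strand to the CCAAT box, to the GC box GGGCGG or to the TATA box TATAAA.
Col1a2, chr6:4505468-4505617: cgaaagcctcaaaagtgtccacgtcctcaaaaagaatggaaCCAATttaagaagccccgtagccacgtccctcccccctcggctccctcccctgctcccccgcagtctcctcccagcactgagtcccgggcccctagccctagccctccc
Col3a1, chr1:45311388-45311537: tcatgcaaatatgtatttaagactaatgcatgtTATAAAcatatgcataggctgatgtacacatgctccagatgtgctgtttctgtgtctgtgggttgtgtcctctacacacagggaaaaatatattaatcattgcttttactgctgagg
Col5a1, chr2:27886275-27886424: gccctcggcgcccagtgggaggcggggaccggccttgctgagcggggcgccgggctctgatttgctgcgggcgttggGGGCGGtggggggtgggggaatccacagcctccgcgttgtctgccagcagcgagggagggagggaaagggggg
The 3 windows share none of the 3 motifs. *Col1a2* holds CCAAT, found in 24.5% of all promoters over the same length, *Col3a1* holds TATAAA (7.57%) and *Col5a1* holds GGGCGG (28.6%). A match is a run of letters and not a bound site, and the start used for *Col1a2* lies inside the gene as GENCODE annotates it, downstream of its first base at 4504814.

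Basement membrane collagens split. *Col4a1* and *Col4a2*, the common chains of type IV collagen, had log2 fold changes of 0.09 and 0.09 (adjusted p 0.937 and 0.898). *Col4a1* was at 99.2 CPM in LKO replicate 1 and at 36.9 to 52.1 CPM in the other LKO livers, and among WT livers replicate 2 was highest at 87.0 CPM. *Col18a1*, the source of endostatin and a collagen that hepatocytes themselves express, was the only member on the lower side at an unadjusted p-value under 0.05. It lay at 1327, 1414 and 1638 CPM in WT and at 1123, 1248 and 1389 CPM in LKO livers. All 6 LKO livers were below the WT mean, and 2 of them, replicates 2 and 4, lay within the WT range. Its log2 fold change was -0.20 ± 0.07 (SE; 95% interval -0.35 to -0.04), unadjusted p 0.0173, adjusted p 0.297, and it was -0.16 without LKO replicate 1.

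The 3 chains of type VI collagen, which forms beaded filaments, and *Col14a1*, which decorates the fibril surface, had log2 fold changes of 0.11 to 0.21 and adjusted p-values of 0.710 or more. Among all 44 genes with a collagen symbol, 33 were tested, 18 had log2 fold changes above 0 and 15 below, and 0 were called. The lowest p-value of the 33 was that of *Col5a3*, a further chain of type V collagen, at 70.8, 92.1 and 99.9 CPM in WT and 58.7, 70.2 and 81.1 CPM in LKO livers. All 6 LKO livers lay below the WT mean and the ranges overlapped (log2 fold change -0.35 ± 0.11 SE, unadjusted p 0.00535, adjusted p 0.197). *Col27a1* had a log2 fold change of -0.49 (unadjusted p 0.0101, adjusted p 0.245), *Col11a2* had -0.37 (adjusted p 0.556) and *Col24a1* had 0.13 (adjusted p 0.959). The 21 tested collagens outside the list had 7 estimates above and 14 below 0, with a median of -0.09, against 11 above and 1 below among the 12 in it. The difference between these sets of genes was not tested.

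The question of quiescence against activation was put to each liver as the mean log2 CPM of 17 tested activation genes (fibrillar collagens, *Acta2*, *Tagln*, *Vim*, *Lox*, *Loxl1*, *Loxl2*, *Postn*, *Ctgf*, *Mmp2*, *Mmp14*, *Tgfb1* and *Pdgfrb*) minus that of *Reln*, *Lrat* and *Des*. The activation mean was 2.34 ± 0.17 (SD, n = 6) in WT and 2.50 ± 0.30 in LKO livers, and the quiescent mean was 3.29 ± 0.14 and 3.55 ± 0.24. Both were thus higher on average in LKO livers, by 0.16 and by 0.26 on the log2 scale, and in both LKO replicate 1 was the highest liver (3.02 and 3.91). The difference of the means was -0.95 ± 0.13 in WT and -1.05 ± 0.18 in LKO livers. It shifted by -0.11 toward the quiescent markers, which is less than 1 SD of either group. Among those markers the log2 fold change was 0.47 for *Lrat*, 0.16 for *Reln* and 0.19 for *Des*. Only that of *Lrat* stood well above the 0.16 of the activation mean, so the direction of the shift leans on 1 gene. LKO replicates 1, 2 and 4 lay inside the WT range of -1.14 to -0.79, replicate 6 did too, and replicates 3 and 5 lay below it at -1.26 and -1.26. In total liver RNA these means are not specific to stellate cells, since other cells also express activation genes such as *Vim* and *Acta2*. Genes of few reads, such as *Lox* and *Tagln*, count in them as much as abundant ones. The part of other cells in the means was not tested.

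**Figure D4:**
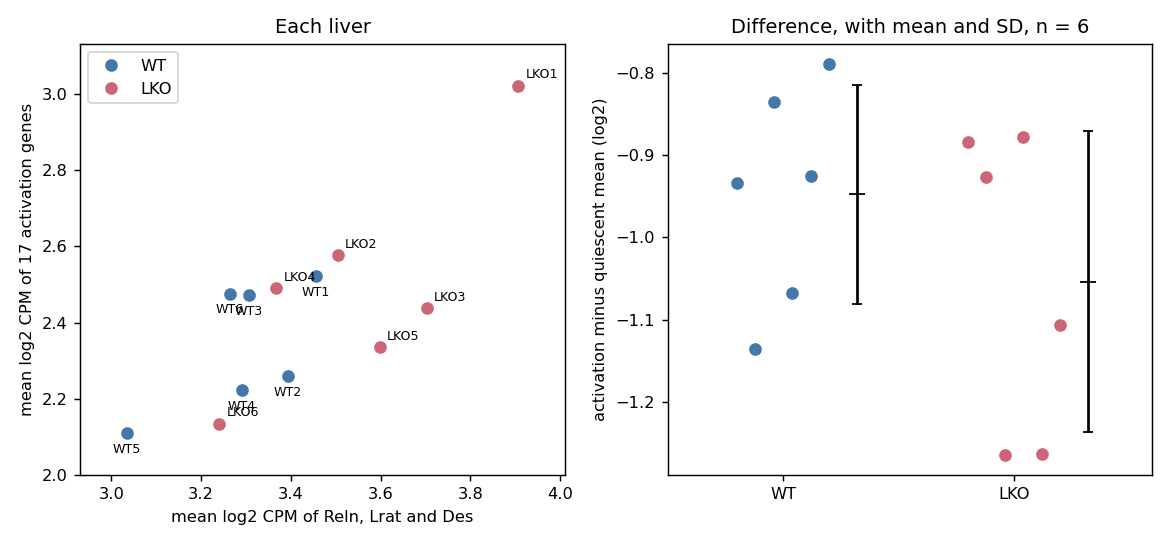
Left, the mean log2 CPM of 17 activation genes (y axis) against that of *Reln*, *Lrat* and *Des* (x axis) in each liver; right, the difference of the 2 means in each liver by genotype, with the mean and SD of 6 livers as bars. LKO replicate 1 is at the top right, and on the right the genotypes overlap, with means of -0.95 in WT and -1.05 in LKO livers.

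Among the ligands, *Tgfb2*, an isoform of TGF-beta, had the largest log2 fold change of all members. It was at 0.484, 0.620 and 0.837 CPM in WT and at 0.740, 0.960 and 1.16 CPM in LKO livers, from 7 to 25 reads. All 6 LKO livers lay above the WT mean and replicate 4 lay within the WT range (log2 fold change 0.57 ± 0.20 SE, 95% interval 0.14 to 1.00, unadjusted p 0.0123, adjusted p 0.264). *Tgfb1*, the main isoform, had a log2 fold change of 0.26 (adjusted p 0.653) that was 0.02 without LKO replicate 1, at 11.1 CPM the highest liver. *Ctgf*, connective tissue growth factor and a target of TGF-beta and YAP, had 0.05 (adjusted p 0.975) and spread from 2.88 to 13.1 CPM among LKO livers.

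*Pdgfra*, a PDGF receptor of mesenchymal cells, was at 4.04, 5.69 and 9.05 CPM in WT and at 5.70, 8.37 and 9.77 CPM in LKO livers. Replicates 2, 3, 4 and 6 of the LKO livers lay within the WT range, and the log2 fold change was 0.40 ± 0.18 (SE), unadjusted p 0.0410, adjusted p 0.399. *Pdgfrb*, the receptor most tied to stellate cell proliferation, had a log2 fold change of 0.04 (95% interval -0.27 to 0.34, adjusted p 0.954). The TGF-beta receptor *Tgfbr2* had 0.24 (adjusted p 0.646).

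Downstream and around these signals, 26 of 27 further TGF-beta signalling genes were tested. Of these, 16 were above 0 (50.0% of all genes) and 10 below, with a median of 0.03. At an unadjusted p-value under 0.05, 3 were on the higher side (6.33% of all genes), and 0 were called. *Tgfbi*, a secreted TGF-beta target, had the lowest p-value of that list, at 18.5, 23.5 and 28.6 CPM in WT and 26.5, 29.7 and 34.9 CPM in LKO livers (log2 fold change 0.37, adjusted p 0.164). *Itgb5*, an integrin subunit and the gene of highest level there, had 0.04 (adjusted p 0.859). Of 5 further PDGF signalling genes 3 were above and 2 below 0 and 0 were called, and *Nrp1*, a co-receptor with the lowest p-value and the highest level, had -0.42 (adjusted p 0.567).

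Among matrix proteases, *Mmp14*, the membrane-bound collagenase, and *Mmp2*, the gelatinase that it activates, had log2 fold changes of 0.11 and -0.09 (adjusted p 0.735 and 0.870). Their inhibitors *Timp2* and *Timp3* had 0.14 and 0.17 (adjusted p 0.758 and 0.574), and exons of *Timp3* share 1733 nt with *Syn3* on the other strand. *Timp1*, the inhibitor that activated stellate cells and inflamed livers induce, was near absent. It had 0 to 3 reads in each WT liver and 0 or 1 in 5 LKO livers, while LKO replicate 1 had 9 reads (0.419 CPM). No fold change was computed for it.

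In 21 further matrix proteases and inhibitors, 16 were tested and 0 were called, with 12 above and 4 below 0. *Mmp15*, another membrane-bound metalloprotease, had the lowest p-value, at 42.5, 56.6 and 71.6 CPM in WT and 29.5, 36.6 and 46.0 CPM in LKO livers. The ranges overlapped between 42.5 and 46.0 CPM, the log2 fold change was -0.66 ± 0.14 (SE), and the adjusted p-value was 0.0639 by edgeR, 0.0670 by limma voom and 0.00249 by DESeq2. *Mmp19*, of the highest mean CPM over all livers, had -0.03 (adjusted p 0.917).

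The cross-linking enzymes, which join collagen and elastin chains through oxidised lysines, were low. *Lox*, *Loxl1* and *Loxl2* had log2 fold changes of 0.02, -0.15 and 0.25 with adjusted p-values of 0.992, 0.866 and 0.721. *Lox* rested on 4 to 18 reads per liver, and its 95% interval, -0.72 to 0.77, covers changes of more than 1.5-fold either way. Of 25 collagen processing enzymes 24 were tested, 12 were above and 12 below 0, 0 were called, and the median was 0.00. *Ppib*, the prolyl isomerase of collagen folding, had the lowest p-value (log2 fold change -0.26, adjusted p 0.193), and *P4hb*, the beta subunit of prolyl 4-hydroxylase and of the highest level, had -0.06 (adjusted p 0.842).

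The small proteoglycans that coat fibrils, *Dcn* (decorin), *Lum* (lumican) and *Bgn* (biglycan), had log2 fold changes of 0.24, 0.23 and 0.18 with adjusted p-values of 0.435, 0.669 and 0.611. Of these *Dcn* was the most abundant, at 69.4 to 122 CPM in WT and 93.6 to 127 CPM in LKO livers. Their log2 SD was smaller in LKO than in WT livers for 3 of 3 genes, for *Dcn* 0.15 against 0.28.

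Among the glycoproteins *Ecm1*, extracellular matrix protein 1, had the lowest p-value of all members. It lay at 54.0, 72.1 and 78.9 CPM in WT and at 69.2, 87.6 and 106 CPM in LKO livers. All LKO livers were above the WT mean and 1 of 6, replicate 6, lay within the WT range (log2 fold change 0.36 ± 0.11 SE, 95% interval 0.11 to 0.60, unadjusted p 0.00752, adjusted p 0.223). It was 0.35 without LKO replicate 1.

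*Postn* encodes periostin, a matricellular protein of remodelling tissue. Values were 3.72, 6.07 and 7.02 CPM in WT and 4.38, 8.98 and 9.98 CPM in LKO livers, with 4 LKO livers above every WT liver and replicates 2 and 6 within the WT range. Its log2 fold change was 0.53 ± 0.21 (SE), unadjusted p 0.0232, adjusted p 0.325, and 0.50 without LKO replicate 1. *Sparc*, osteonectin, a collagen-binding protein, was at 33.4, 41.0 and 45.8 CPM in WT and 36.3, 46.7 and 70.8 CPM in LKO livers. The last value was again that of LKO replicate 1 (log2 fold change 0.30 ± 0.14 SE, unadjusted p 0.0496, adjusted p 0.427; 0.17 without it). *Fbn1*, the microfibril protein fibrillin, had 0.15 (adjusted p 0.832), and its exons overlap an antisense gene over 2442 nt. Antisense exons also overlap those of *Ctgf* (665 nt), *Pdgfra* (652 nt) and *Hand2* (461 nt).

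**Figure D5:**
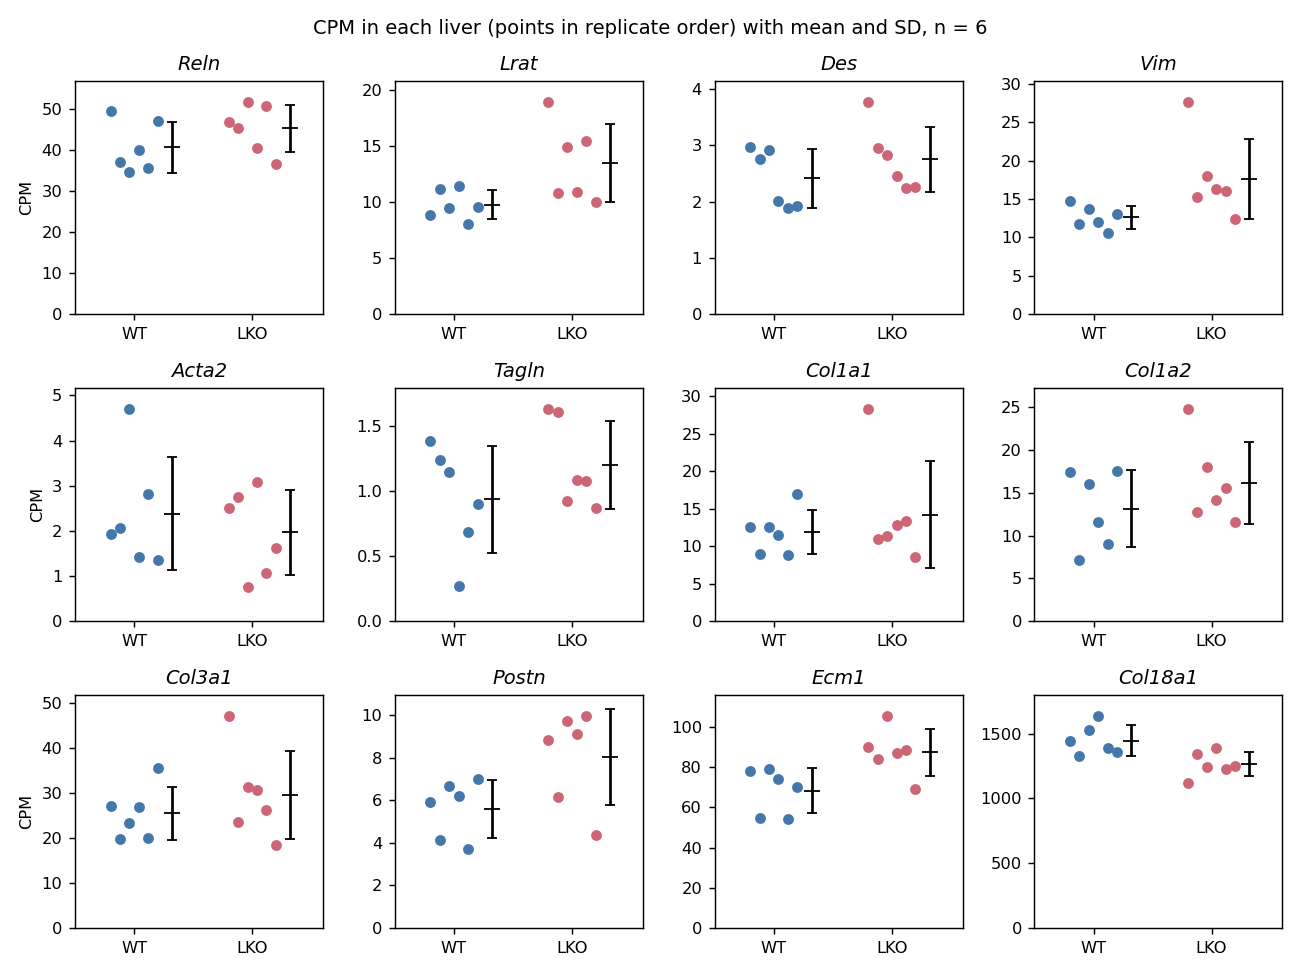
CPM (y axes from 0) in each of 6 WT (blue) and 6 LKO (red) livers for 12 members, with the mean and SD as bars beside the points. The genotypes overlap in all 12 panels, and LKO replicate 1, the first red point, is the highest liver for *Lrat*, *Des*, *Vim*, *Tagln*, *Col1a1*, *Col1a2* and *Col3a1* and the lowest for *Col18a1*.

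A single gene of the wider matrix passed the threshold. Of 39 basement membrane and matrix glycoproteins 36 were tested, 20 were above and 16 below 0, and 1 was called. *Lama3*, a laminin alpha chain of epithelial basement membranes, fell from 7.18, 8.32 and 9.18 CPM in WT to 3.81, 5.88 and 6.17 CPM in LKO livers, with no overlap. Its log2 fold change was -0.65 ± 0.13 (SE), adjusted p 0.0358 by edgeR, 0.0280 by limma voom and 0.000323 by DESeq2. With the replicate number as a block the adjusted p-value was 0.0631, and when single livers were left out it ranged from 0.0258 to 0.102, above the threshold without any 1 of WT replicates 1, 2, 4, 5 and 6 or LKO replicates 3, 4 and 5. *Fn1*, fibronectin, which hepatocytes secrete into plasma, had the highest mean CPM of that list and a log2 fold change of -0.29 (adjusted p 0.239).

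Set on a scale per length (RPKM, reads per kilobase of exon, scaled to library size), the members spanned a wide range of levels in WT livers. *Col18a1* was highest at 206 RPKM, followed by *Ecm1* at 27.1, *Dcn* at 16.5, *Bgn* at 10.9 and *Sparc* at 10.7 RPKM, the last 2 of which do not differ beyond their spread. *Col3a1*, *Col1a1* and *Col1a2* were at 2.60, 1.81 and 1.06 RPKM, *Lrat* and *Reln* at 1.82 and 1.71, *Acta2* at 1.08, *Tagln* at 0.470 and *Timp1* at 0.0775 RPKM. The most abundant member by this measure was thus a collagen of hepatocytes and the basement membrane. The mean levels of *Acta2* and *Tagln*, which mark the myofibroblast, were below those of *Lrat* and *Reln*. For *Acta2* this order holds for the means and not for every liver. Its log2 SD among WT livers was 0.67, against 0.19 for *Lrat* and 0.22 for *Reln*.

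Coupling between members was examined for 4 pairs within each genotype, by Pearson's r and Spearman's rho of log2 CPM over 6 livers, with exact two-sided permutation p-values adjusted over the 8 relations. For *Col1a1* and *Col3a1*, chains of the main fibrils, no adjusted p-value was under 0.05. Their r was 0.943 in WT (exact permutation p 0.00833, adjusted 0.05) and 0.920 in LKO livers (exact permutation p 0.0125, adjusted 0.05). By rank, rho was 0.886 (exact permutation p 0.0333, adjusted 0.267) and 0.771 (0.103, adjusted 0.363). Without the 2 livers farthest from the median of *Col1a1*, r was 0.795 in WT and 0.240 in LKO livers. Those left out of the LKO group were replicates 1 and 6. Leaving out extreme livers narrows the range of *Col1a1*, so a lower r over 4 livers cannot show what the relation rests on.

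*Acta2* and *Tagln* had an r of 0.393 in WT and 0.63 in LKO livers and a rho of 0.2 and 0.6. *Reln* and *Lrat* had an r of -0.067 and 0.748 and a rho of 0.143 and 0.714. For *Col1a1* and *Acta2*, r was -0.319 and 0.284 and rho -0.543 and 0.0286. Adjusted exact permutation p-values of these 6 relations ran from 0.278 to 0.897 for r and from 0.363 to 1 for rho, and 6 livers cannot resolve correlations of this size.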

How the data were processed

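Liver RNA of 6 WT and 6 LKO mice was sequenced as mRNA libraries (Illumina HiSeq4000). Per the labels and the study's methods, the authors used Trimmomatic 0.36 for trimming, HISAT2 2.1.0 for alignment (GRCm38.p6, Ensembl 93) and HTSeq 0.6.1 for counting. The deposited table holds raw read counts for 54232 Ensembl genes in 12 columns, 1 per mouse, each named for its library in the labels. GENCODE M21 (GRCm38) supplied symbols, exon lengths and coordinates for 54165 identifiers. *Ctgf* is listed there as *Ccn2*.

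Here, a gene was kept if 6 or more livers each held over 2 of its reads. Libraries were scaled by TMM, and genotype was tested with edgeR 4.0.16 (glmQLFit, glmQLFTest; R 4.3.3), with Benjamini-Hochberg adjustment over all 17509 genes. CPM and RPKM use TMM-scaled library sizes, and log2 CPM a prior count of 0.5. Intervals are 95%, from the SE and the test's degrees of freedom. Alternatives were RLE and upper quartile scaling, library sizes without the 20 most abundant genes, other filters, limma voom 3.58.1, DESeq2 1.42.0, a replicate block and leaving out each liver. The test was tried on simulated counts first. Libraries held 14860414 to 22111926 counts, and TMM factors were 0.945 to 1.052.

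The members and gene lists were chosen with earlier results of these data known, so they are no independent evidence. Livers are described by lowest, median and highest value for *Reln*, *Lrat*, *Des*, *Acta2*, *Col1a1*, *Col1a2*, *Col3a1*, *Timp1* (as reads) and members with an unadjusted p-value under 0.05. From each further list, genes past the adjusted threshold are named, with those of lowest p and highest level. Values for other members were added for context, and *Col5a3*, *Col27a1*, *Col11a2* and *Col24a1* were named after their values were seen.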

Additional observations from a re-analysis of the deposited data

Results flagged for a closer look

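Among 84 groups of 6 livers (39 members, the activation and quiescent means and their difference, in each genotype), the most extreme liver lay farther from the rest than Dixon's 95% critical value in 3, where chance flags about 1 in 20 groups. *Col4a1* in LKO livers had a ratio of 0.651, with 99.2 CPM in LKO replicate 1 and 36.9 to 52.1 CPM in the others. *Mmp2* in LKO livers had a ratio of 0.634, with 1.62 CPM in replicate 6 and 2.28 to 2.77 CPM in the others. *Timp3* in WT livers had a ratio of 0.670, with 12.3 CPM in replicate 3 and 8.14 to 9.32 CPM in the others.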

How the results depend on the processing

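Under each alternative setting and each left-out liver, 0 members were called, and the lowest adjusted p-value of any member was 0.117. The number of all genes called was 75, and it was 114 with no filter beyond 1 read, 351 by DESeq2, 97 with the replicate block and 38 to 132 when single livers were left out (lowest without WT replicate 5, highest without WT replicate 3). When single livers were left out, members above 0 numbered 28 to 35, those on the higher side at an unadjusted p-value under 0.05 numbered 4 to 11, those on the lower side 0 to 1, the median log2 fold change of the members was 0.11 to 0.27, and the shift of activation minus quiescent means was -0.14 to -0.06. That count of 7 on the higher side was 11 without WT replicate 1 and 4 without WT replicate 5, LKO replicate 3 or LKO replicate 5. The single member on the lower side was lost without WT replicate 4. Over all genes, the share on the higher side was 6.33% with every liver and 6.16% without LKO replicate 1. Such shares were not computed for the other left-out livers, so those counts of members have no background beside them.

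Of 777 member values under the alternatives 758 kept their direction and 19, in 8 members, did not. The log2 fold change of *Ctgf* was -0.11 by limma voom and -0.0375 with the replicate block, and that of *Lox* was -0.0106 by limma voom. Leaving out single livers gave ranges of -0.0541 to 0.40 for *Col1a1*, -0.18 to 0.31 for *Col4a1*, -0.0419 to 0.17 for *Col4a2*, -0.0051 to 0.22 for *Col6a3*, -0.47 to 0.0097 for *Acta2*, -0.13 to 0.23 for *Ctgf*, -0.0386 to 0.12 for *Pdgfrb*, -0.26 to 0.28 for *Lox* and, outside the members, -0.0562 to 0.0081 for *Mmp19*. Without the 2 livers farthest from the median of the first gene, r was 0.795 and 0.240 for *Col1a1* with *Col3a1*, 0.732 and 0.362 for *Reln* with *Lrat*, and 0.3003 and -0.0467 for *Col1a1* with *Acta2* in WT and LKO livers. Equal replicate numbers came from different mice. Their deviations correlated over 0.1 in 4 of 6 pairs and most with their own number in 2, so the numbers were not taken to pair the livers. With 6 livers a group and 25 reads or fewer a liver, differences in *Tgfb2*, *Lox* and *Timp1* are poorly resolved.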
